A study of Mus musculus with 24 samples.

Results

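The mimic-specific enrichment over input is the amount by which a pulldown over input ratio with a miR-29b mimic exceeded the same ratio with a scrambled mimic. It was measured in replicates 1 to 3 of 4 groups of RNA libraries from NIH3T3, an immortal fibroblast line derived from mouse embryos. These are 12 of the 24 libraries of the series, taken by group and replicate number. They are the lysed set, since the authors' deposited lysed mean covers replicates 1 to 3. The fourth replicate, the intact set, was left out of the fit and is described at the end, with 8 libraries of cell fractions.

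The groups were pull29b and input29b, the pulldown and the input from cells given the miR-29b mimic, and pullscram and inputscram, the same from cells given the scrambled mimic. In all 4 groups the NIH3T3 cells were reverse transfected with a mimic that carried CNVK, 3-cyanovinylcarbazole, a nucleoside that light can crosslink to a base on the opposite strand. Per the labels the mimics were at 10 nM, growth medium was topped up at 24 h and harvest followed after a further 8 h. Each of the 12 libraries was made from 5 ng of RNA and primed with a mixture of hexamers and oligo-dT. The data come from 1 cell line and a mimic present at a level set by transfection, with an unrelated sequence as its control.

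MicroRNAs are short RNAs that guide Argonaute proteins to messenger RNAs, mostly through pairing of the seed near their 5′ end with sites in the 3′ untranslated region. The messages so bound are repressed or degraded. The miR-29 family is known in fibroblasts for its many targets among collagens and other matrix genes, and elsewhere for targets among DNA methylation enzymes and regulators of apoptosis.

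The mature miR-29 sequences of the mouse are shown because all members have 1 seed, to which the predicted sites described later refer. They are RefSeq's, on GRCm38.p6, written 5′ to 3′ with the seed, bases 2 to 8, in capitals. The letters of the mimics themselves were not used here.
mmu-miR-29b-3p: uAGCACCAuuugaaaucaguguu
mmu-miR-29c-3p: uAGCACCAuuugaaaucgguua
mmu-miR-29a-3p: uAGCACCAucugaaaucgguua
MiR-29b-3p has 23 bases and comes from 2 genes, Mir29b-2 on the plus strand at chr1:195037091-195037113 and Mir29b-1 on the minus strand at chr6:31063025-31063047. MiR-29c-3p (chr1:195037600-195037621, plus strand) and miR-29a-3p (chr6:31062673-31062694, minus strand) have 22 bases. Over the shared length they differ from miR-29b-3p at 3 and 4 bases, all outside the seed. The site that pairs with the whole seed and has an A opposite the first base of the miRNA, called an 8mer, reads UGGUGCUA.

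The libraries held 21726775 to 41046886 listed counts in pull29b, 20844587 to 30538400 in input29b, 7409157 to 27665275 in pullscram and 22664746 to 39735175 in inputscram. The smallest was replicate 1 of pullscram, which stood apart, with 2544 and 2061 genes over 2-fold from replicates 2 and 3, against 220 between these. In every group replicate 3 lay close to a weighted mean of replicates 1 and 2. Over 4655 to 5912 genes with a mean of at least 500 counts, its SD from that mean on the log2 scale was 0.0687 in pull29b, 0.0844 in input29b, 0.0829 in pullscram and 0.0800 in inputscram, where counting error alone gives 0.0477 to 0.0531. Replicates 1 and 2 lay 0.106 to 0.692 from any such mean of the others. The labels do not say that replicates came from separate cultures. P-values therefore measure the spread between these libraries, which may be technical. A replicate that is not independent of the others would make these p-values too small. Whether replicate 3 is such a library was not tested. Many counts and calls that changed without replicate 3 or without replicate 1 of pullscram are given with the lists or after them. Not all are, so a count given alone is not thereby stable.

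Values below are CPM, counts scaled to the size of each library with TMM factors. The mimic-specific enrichment is the log2 of the ratio pull29b over input29b divided by pullscram over inputscram, with its standard error (SE) from edgeR's quasi-likelihood F test. Calls are at a Benjamini-Hochberg adjusted p under 0.05 over 12834 genes, with n = 3 libraries per group.

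Recovery over input was higher with miR-29b than with the scrambled mimic for 3127 genes, or 24.4% of those tested. It was lower for 2457, or 19.1%, and 7250 did not pass, so that 43.5% were called in either direction. The median log2 value was 1.497 among the higher genes and −0.96 among the lower ones, against −0.07 over all genes tested. Of the higher genes 2244 were at least 2-fold higher, 1007 at least 4-fold and 118 at least 16-fold. Of the lower genes the same sizes were reached by 1136, 190 and 8.

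Most higher genes were recovered above input with miR-29b. In 2848 of the 3127 the mean of pull29b lay above that of input29b, and in 1521 of these the mean of pullscram did not lie above that of inputscram. Their median log2 pulldown over input was 1.47 with miR-29b and −0.15 with the scrambled mimic. Most of the lower genes lay above input with the scrambled mimic. In 1706 of the 2457 the mean of pullscram lay above that of inputscram, and the median log2 pulldown over input was −0.68 with miR-29b and 0.41 with the scrambled mimic. In 751 of them neither pulldown lay above its input. Over all 12834 genes tested, pull29b lay above input29b in 6348 and pullscram above inputscram in 6589. These ratios are parts of the contrast that chose the genes, so the counts only describe the calls. Between the inputs the median log2 difference of miR-29b over scrambled was −0.09 among the higher genes and 0.05 among the lower. Single genes differed more, with −1.43 for Rsad2 and 0.89 for Cpt1c. Wbp1l, which rose by 1.15, differed by 0.44 between the pulldowns and by −0.71 between the inputs.

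**Figure D1:**
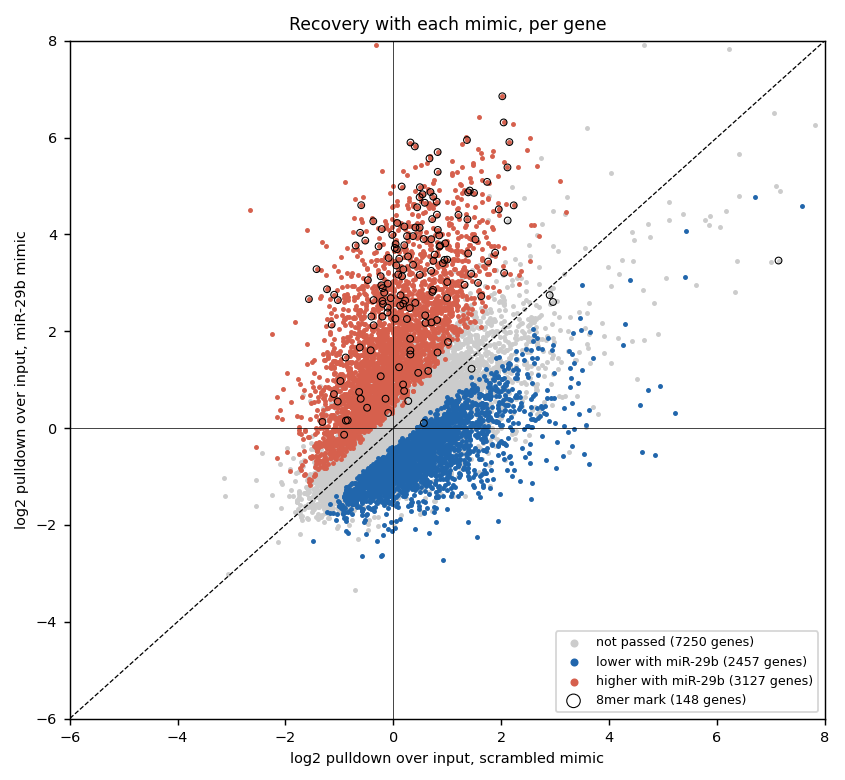
Log2 pulldown over input with the miR-29b mimic (vertical) against the same with the scrambled mimic (horizontal), 1 point per gene tested, with 7 genes outside the axes. The dashed line marks equal recovery, the 3127 higher genes lie above it, the 2457 lower genes below it, and rings mark the 148 genes with an 8mer mark, most of which lie in the upper cloud.

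The higher genes took up 33.8%, 51.2% and 41.9% of the counts tested in the 3 pull29b libraries, against 9.64% to 12.4% in pullscram. In the inputs they held 12.8% to 13.0% with miR-29b and 13.1% with the scrambled mimic. The split of the calls into higher and lower changed with the scaling. Scaling to the authors' library totals gave 3205 higher and 571 lower, or 25% and 4.45% of the genes tested, with a median of 0.24 over all genes. Upper-quartile factors gave 2386 higher and 4405 lower with a median of −0.42. Without replicate 3 of every group, 1702 genes were higher and 502 lower, or 13.3% and 3.93% of 12764 tested, and 1701 and 501 of these are among the calls above.

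The 12 genes at the top of the mimic-specific enrichment were picked by a rule that asked for an official gene symbol, a level of 5 CPM or more as the mean of some group, and pull29b libraries that all lay on 1 side of the pullscram libraries. In order they were Rsad2, Efna2, Nrep, Frat2, Slc40a1, Mcl1, H3f3c, Nap1l3, Klf4, Ammecr1l, Snx24 and Acvr2a, with log2 values from 5.98 to 4.99. All 12 kept their call without replicate 3. Lack of overlap between the pulldowns was required of them by the rule. Over all genes tested, 28.9% had every pull29b library above the pullscram libraries and 28.4% had every one below. Coordinates are on GRCm38.p6, from RefSeq.

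Mcl1 (ENSMUSG00000038612; chromosome 3, 95656944 to 95663179) encodes a Bcl2-type protein that holds apoptosis back. It had 1615, 2330.2 and 1967 CPM in replicates 1, 2 and 3 of the miR-29b pulldown and 78.3, 84.3 and 80.7 CPM in the miR-29b input. Its level was 62.9, 55.7 and 53.5 CPM in the scrambled pulldown and 77.6, 93.7 and 88.3 CPM in the scrambled input. The 3 miR-29b pulldown libraries lay far above all others, and the scrambled pulldown lay below its input with no overlap. The log2 enrichment was 5.20 ± 0.21, a 36.7-fold difference (edgeR adjusted p = 1.78e-08). Without replicate 3 it was 5.10 (edgeR adjusted p = 0.000495).

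Slc40a1 (ENSMUSG00000025993; chromosome 1, 45908070 to 45926532) encodes ferroportin, the iron exporter. Slc40a1 stood at 165, 261 and 211 CPM in the miR-29b pulldown and 5.37, 7.43 and 6.39 CPM in the scrambled pulldown. In the inputs it stood at 7.06, 7.64 and 8.44 CPM with miR-29b and 9.77, 8.94 and 10.1 CPM with the scrambled mimic. Only the miR-29b pulldown was high, and the other 3 groups lay within a narrow range. The enrichment was 5.34 ± 0.25 on the log2 scale, or 40.4-fold (edgeR adjusted p = 2.73e-08, and 0.000495 without replicate 3).

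Efna2 (ENSMUSG00000003070; chromosome 10, 80179482 to 80190010) encodes ephrin-A2, a ligand tethered to the cell surface. It had 62.0, 86.7 and 69.1 CPM in replicates 1, 2 and 3 of the miR-29b pulldown and 3.47, 5.19 and 4.24 CPM in the miR-29b input. Its level was 1.70, 2.56 and 1.64 CPM in the scrambled pulldown and 5.42, 7.69 and 5.48 CPM in the scrambled input. Here the scrambled pulldown lay below both inputs, so that the low recovery with the scrambled mimic adds to the difference. The component with miR-29b, pull29b over input29b, was 4.08 ± 0.22 on the log2 scale and that with the scrambled mimic −1.60 ± 0.24. Together they gave 5.69 ± 0.32, or 51.5-fold (edgeR adjusted p = 8.12e-08).

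Acvr2a (ENSMUSG00000052155; chromosome 2, 48814109 to 48903264) encodes a type II activin receptor. Acvr2a stood at 469, 1263 and 845 CPM in the miR-29b pulldown and 21.6, 35.9 and 29.1 CPM in the scrambled pulldown. In the inputs it stood at 18.0, 23.1 and 20.4 CPM with miR-29b and 21.5, 22.6 and 22.03 CPM with the scrambled mimic. Replicate 1 of the miR-29b pulldown was the lowest of its group yet lay above all 9 other libraries. The enrichment was 4.99 ± 0.42 (edgeR adjusted p = 1.74e-06, and 0.00149 without replicate 3). Klf4, a transcription factor of the Krüppel-like family, had 143, 414 and 285 CPM in the miR-29b pulldown and 7.63, 13.8 and 13.5 CPM in the scrambled one. Its log2 enrichment was 5.07 ± 0.46 (edgeR adjusted p = 3.26e-06).

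Rsad2 (ENSMUSG00000020641; chromosome 12, 26442743 to 26456452), the interferon-induced antiviral protein viperin, had the highest value of the 12. It had 869, 1276 and 1061 CPM in replicates 1, 2 and 3 of the miR-29b pulldown and 31.9, 31.5 and 31.3 CPM in the miR-29b input. Its level was 71.5, 31.6 and 35.4 CPM in the scrambled pulldown and 82.0, 88.9 and 83.3 CPM in the scrambled input. The miR-29b pulldown did not overlap any other group, and the miR-29b input lay below the scrambled input in all libraries, with a log2 difference of −1.43 ± 0.25. The enrichment was 5.98 ± 0.38 (edgeR adjusted p = 1.95e-07).

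Of the rest, Frat2, a binding partner of GSK3, and H3f3c, which resembles histone H3 genes and which the file marks as a pseudogene, rest on low counts outside the miR-29b pulldown. Frat2 had 11.7, 25.8 and 18.5 CPM there and 0.234 to 0.848 CPM in the other 9 libraries. H3f3c had 8.64, 9.56 and 10.3 CPM there and at most 1.08 CPM elsewhere. Reads of H3f3c may be split among near-identical copies. Nrep (5.58 ± 0.55), Ammecr1l (5.01 ± 0.26), the sorting nexin gene Snx24 (4.99 ± 0.20) and Nap1l3, of the nucleosome assembly protein family (5.12 ± 0.56), complete the list.

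**Figure D2:**
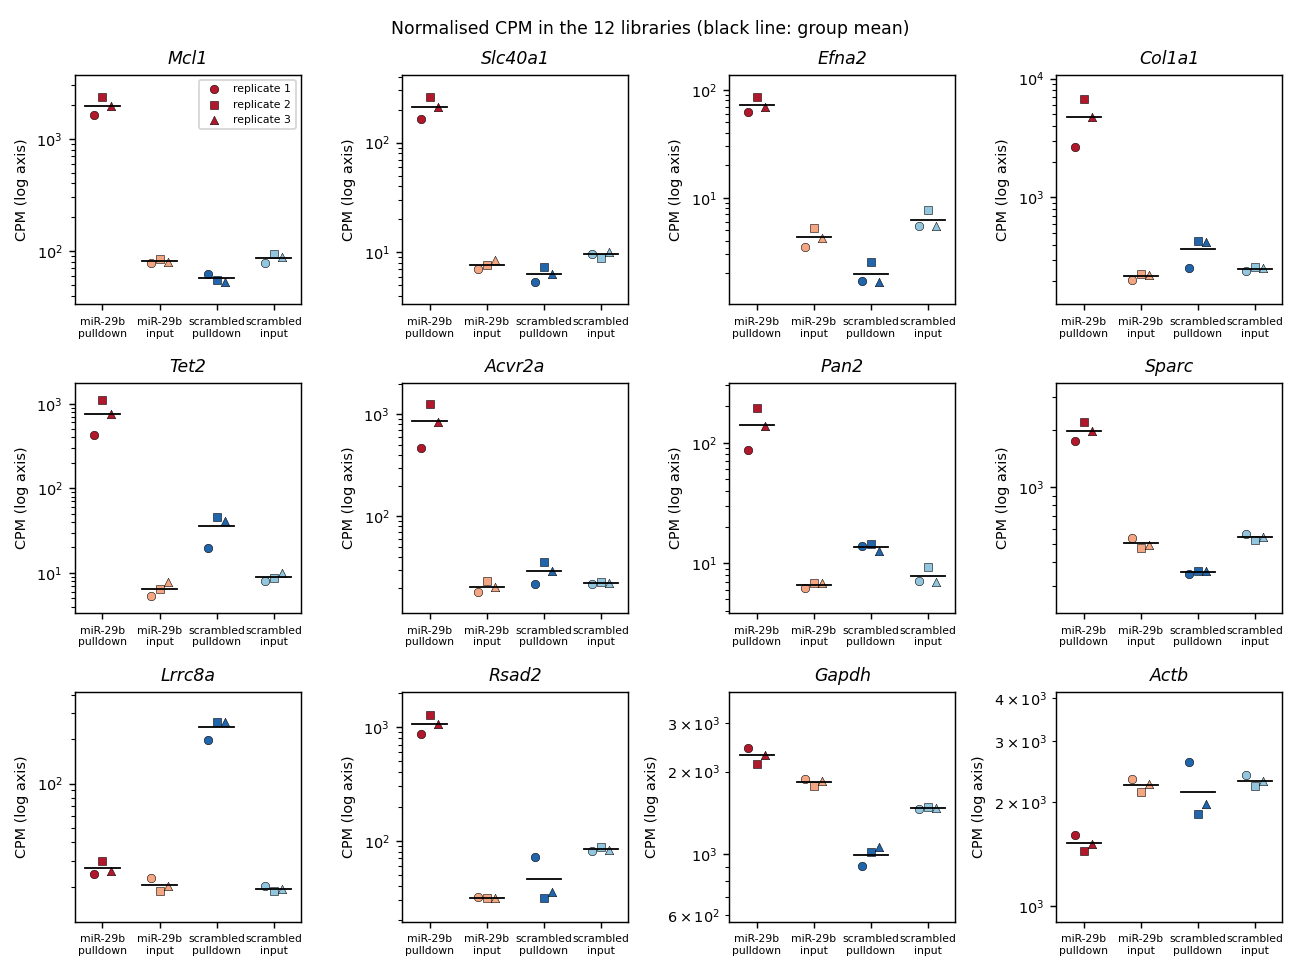
Normalised CPM on log axes in each of the 12 libraries for 12 genes, with the miR-29b pulldown and its input left of the scrambled pulldown and its input, and the group mean as a line. In the genes from Mcl1 to Sparc, and in Rsad2, the 3 miR-29b pulldown libraries lie above all others, whereas in Lrrc8a the 3 scrambled pulldown libraries do.

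The genes at the low end, picked by the same rule, included Lrrc8a, Cpt1c, Edf1, Lars2, H2-Q6, Scand1, Ggact, AY036118, Endov, Hoxc5 and Mypop, with log2 values from −3.26 to −2.38. Lrrc8a (ENSMUSG00000007476; chromosome 2, 30237769 to 30263790) encodes a subunit of the volume-regulated anion channel. It had 24.5, 30.0 and 25.4 CPM in replicates 1, 2 and 3 of the miR-29b pulldown and 22.9, 18.5 and 20.2 CPM in the miR-29b input. With the scrambled mimic it had 198, 261 and 264 CPM in the pulldown and 20.2, 18.6 and 19.3 CPM in the input. Only the scrambled pulldown was high, while the miR-29b pulldown lay just above its input. The enrichment was −3.26 ± 0.19 (edgeR adjusted p = 1.18e-07, and 0.000752 without replicate 3).

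Edf1, a transcriptional coactivator gene, lay below input in the miR-29b pulldown and above input in the scrambled one. The miR-29b pulldown held 56.2, 41.9 and 50.3 CPM of Edf1, against 319.7, 306 and 310.4 CPM in the scrambled pulldown. The inputs held 118, 111 and 117 CPM with miR-29b and 104, 94.6 and 99.3 CPM with the scrambled mimic. No pair of pulldown and input overlapped with either mimic, and the directions were opposite. Its enrichment was −2.88 ± 0.16 (edgeR adjusted p = 8.08e-08). Lars2, the mitochondrial leucyl-tRNA synthetase, had 694, 357 and 520.5 CPM in the miR-29b pulldown and 2868, 4181 and 4249 CPM in the scrambled one. Its value was −2.84 ± 0.32 (edgeR adjusted p = 1.77e-05). Cpt1c, a carnitine palmitoyltransferase, had −3.03 ± 0.38, and Hoxc5, a homeobox gene, −2.45 ± 0.30. Scand1 and AY036118 lost their calls without replicate 3 (edgeR adjusted p = 0.111 and 0.213), and H2-Q6 belongs to a family of closely similar genes, among which reads may be split.

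Genes with a predicted miR-29 site were mostly among the higher ones. The authors' deposited table marks genes with any predicted site, with an 8mer and with a mark named Ctx80, which was read here only from the column names. The marks did not enter the fit. Of 504 protein-coding genes with any mark, 402 rose and 11 fell, or 79.8% and 2.18%, with a median of 2.17. Of 10971 without a mark, 2625 rose and 2269 fell, or 23.9% and 20.7%, with a median of −0.06.

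The share differed by kind of mark. Of 106 genes with both the 8mer and the Ctx80 mark, 98 rose and 1 fell, with a median of 2.79. Of 42 with an 8mer alone, 39 rose and none fell, at a median of 2.88. Of 59 with Ctx80 alone, 53 rose and 1 fell, at a median of 2.77. The 297 genes with another site mark had 212 higher and 9 lower, a median of 1.66 and quartiles of 0.61 and 2.80. Without replicate 3, 321 of the 504 marked genes rose and 2 fell, against 1335 and 475 of 10904 without a mark. Scaling to library totals gave 396 and 2 of the marked genes, and upper-quartile factors 380 and 23.

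**Figure D3:**
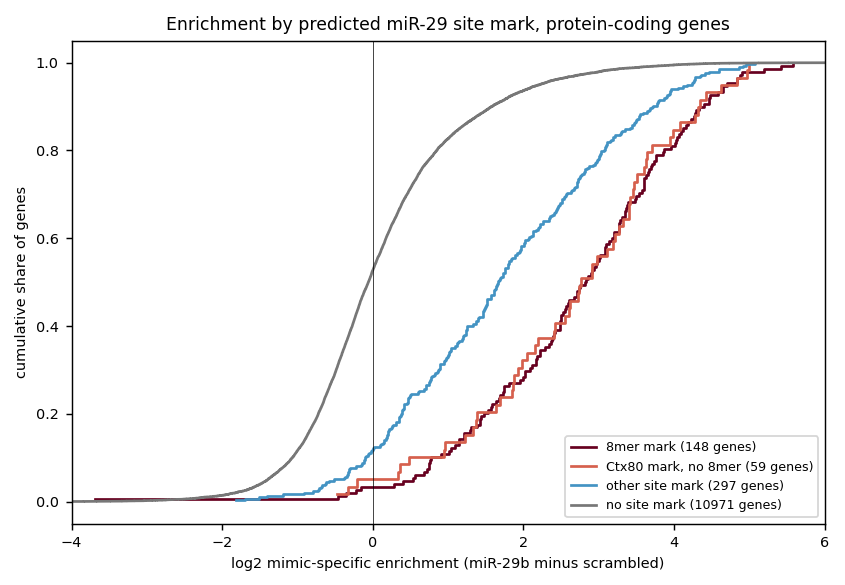
Cumulative share of protein-coding genes (vertical) up to a given log2 mimic-specific enrichment (horizontal), for 148 genes with an 8mer mark, 59 with Ctx80 and no 8mer, 297 with another site mark and 10971 with none. The lines of the 8mer and Ctx80 classes run together with medians of 2.77 to 2.88, the line of other sites lies left of them at 1.66 and that of unmarked genes crosses near 0.

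Among the calls, marked genes were a minority. Of 3027 protein-coding genes that rose, 402 had a mark, or 13.3%, and of 954 that rose at least 4-fold 269 had one, or 28.2%. Of 2280 that fell, 11 had one, or 0.482%. The 8mer genes that did not rise numbered 11. Prpf3, a splicing factor gene, fell, at −0.46 ± 0.14 on the log2 scale (edgeR adjusted p = 0.0189). Rtn4, the reticulon that includes Nogo, had 0.41 ± 0.16 and the calmodulin gene Calm3 0.76 ± 0.34, and neither passed (edgeR adjusted p = 0.0629 and 0.0864). Apc, the scaffold of β-catenin destruction, had −0.23 ± 0.28 and did not pass. Igf1, a growth factor gene, averaged at most 1.00 CPM in any group and was at 0 in the scrambled input. The others were Mlf1, Rapgefl1, Enho, Pitpnm2, Akap17b and Pcdha2.

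Reported miR-29 targets, a list of genes named in the literature for any species, had the highest share of higher calls among the lists described here. Of 73 measured genes 64 rose, 2 fell and 7 did not pass, with a median of 2.74. A further 19 of the 92 listed genes were not tested. Without replicate 3, 56 rose and 0 fell. The genes that fell were Hspg2, which encodes perlecan, at −1.82, and the kinase gene Akt2 at −0.96. Over all genes tested 24.4% rose and 19.1% fell, or 13.3% and 3.93% without replicate 3. These are the shares to set beside each count below. The list's levels summed to 49557, 74409 and 61542 CPM in the miR-29b pulldown and 6929, 8195 and 7957 CPM in the scrambled pulldown, against 7326, 7563 and 7405 CPM and 7318, 7522 and 7425 CPM in the inputs.

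The fibrillar collagens, which form the load-bearing fibres of the matrix, rose nearly as a group. Of the 7 measured, 6 are also among the reported targets counted above. The same holds for 8 of 12 other collagens and 9 of 29 PDGF, IGF and PI3K genes. The lists thus overlap and are not separate results. Of 7 measured genes 6 rose, none fell and Col11a2 did not pass at −1.44 ± 1.29, with a median of 2.99. Col1a1 (ENSMUSG00000001506; chromosome 11, 94936224 to 94953042) encodes a chain of type I collagen. It had 2649.5, 6755 and 4724 CPM in replicates 1, 2 and 3 of the miR-29b pulldown and 202, 229 and 224 CPM in the miR-29b input. With the scrambled mimic it had 257, 427 and 424 CPM in the pulldown and 241, 260.3 and 255 CPM in the input. Replicate 1 of the miR-29b pulldown was the lowest of its group and still lay above every other library, while the scrambled pulldown overlapped its input. The enrichment was 3.88 ± 0.41, or 14.7-fold (edgeR adjusted p = 9.86e-06, and 0.00332 without replicate 3). Col5a2 had 4.12 ± 0.22, Col3a1 3.34 ± 0.40, Col1a2 2.99 ± 0.28, Col5a1 2.94 ± 0.48 and Col5a3 2.85 ± 0.35, all 6 called also without replicate 3.

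Among the other collagens 7 of 12 rose and 1 fell, with a median of 1.68, and both counts were the same without replicate 3. Those that rose were the network-forming chains Col4a5 (4.48), Col4a1 (3.53) and Col4a2 (3.07), the short chain Col8a1 (4.01), Col6a3 (2.52), Col6a2 (1.93) and Col7a1 (1.43). Col18a1 fell by 1.12 on the log2 scale, and Col6a1, a partner of the type VI chains above, had −0.31 ± 0.14 and did not pass. Col4a1, a chain of type IV collagen in basement membranes, had 2741, 3158 and 2927 CPM in the miR-29b pulldown and 366, 283 and 290.0 CPM in the scrambled one, with no overlap (edgeR adjusted p = 4.47e-08).

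Of 9 laminins and other basement membrane genes 5 rose and 2 fell, with a median of 0.65. Pxdn, the peroxidase that crosslinks collagen IV, rose by 4.18 ± 0.33 and the laminin chain Lamc1 by 2.49 ± 0.34. Lamb1, another laminin chain, fell by 1.57 (edgeR adjusted p = 0.000146). Without replicate 3 only Pxdn and Lamc1 rose and only Lamb1 fell.

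Among 23 genes for elastic fibres and collagen crosslinking, 8 rose and 9 fell, with a median of −0.11. Without replicate 3 these were 7 and 5. Lox, lysyl oxidase, rose by 3.87 ± 0.25, the microfibril gene Mfap5 by 3.78 ± 0.42 and Fbn1, fibrillin 1, by 2.56 ± 0.44. Sparc (ENSMUSG00000018593; chromosome 11, 55394159 to 55420080) encodes a collagen-binding glycoprotein. The miR-29b pulldown held 1763, 2223 and 1975 CPM of Sparc, against 344, 361 and 360.4 CPM in the scrambled pulldown. The inputs held 539, 477 and 493 CPM with miR-29b and 566, 526 and 546 CPM with the scrambled mimic. The miR-29b pulldown lay above and the scrambled pulldown below the inputs, with no overlap between these. Its enrichment was 2.60 ± 0.16, or 6.07-fold (edgeR adjusted p = 1.75e-07). Genes that fell included the latent TGF-β binding proteins Ltbp4 (−2.73), Ltbp3 (−1.31) and Ltbp1 (−0.87), the prolyl hydroxylase subunits P4ha1 (−1.40), P4ha2 (−0.73) and P4ha3 (−1.80), and Emilin1 (−1.58).

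Matricellular and other matrix glycoproteins had 3 higher and 4 lower of 21, near the share over all genes for the lower ones. Without replicate 3, 2 rose and 1 fell. Wisp1, a CCN family gene, stood out at 5.52 ± 0.35 (edgeR adjusted p = 1.84e-07). It had 1593, 2644 and 2155 CPM in the miR-29b pulldown and 33.6, 67.8 and 61.8 CPM in the scrambled pulldown, against 51.2, 53.6 and 56.5 CPM and 61.1, 61.4 and 68.4 CPM in the inputs. It carries no site mark in the authors' deposited table. Fibronectin, Fn1, fell by 0.44 and the proteoglycan gene Bgn by 0.96.

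Matrix proteases and their inhibitors had 12 higher and 3 lower of 28, and 6 and 1 without replicate 3. The membrane proteases Adam19 (4.92 ± 0.25), Adam12 (2.41 ± 0.19) and Adam17 (1.89 ± 0.22) rose, as did the gelatinase Mmp2 (2.68 ± 0.36), whereas the inhibitor Timp2 and the membrane protease Mmp14 fell (−0.87 and −0.68). Of 9 integrins Itga5 (1.57 ± 0.14) and Itgb1 (1.52 ± 0.15), the chains of a fibronectin receptor, rose in both fits, and Itgb5 fell by 0.82 and did not pass without replicate 3 (edgeR adjusted p = 0.176).

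The enzymes that write and remove DNA methylation were a mixed list. Of 21 measured genes 10 rose and 3 fell, with a median of 0.32. All 3 Tet genes, the dioxygenases that oxidise 5-methylcytosine, rose, with Tet2 at 4.83 ± 0.50, Tet3 at 4.59 ± 0.67 and Tet1 at 4.06 ± 0.75. Tet2 had 424, 1096 and 752 CPM in replicates 1, 2 and 3 of the miR-29b pulldown and 5.37, 6.51 and 7.71 CPM in the miR-29b input. With the scrambled mimic it had 19.9, 46.4 and 41.3 CPM in the pulldown and 8.13, 8.71 and 9.99 CPM in the input. The scrambled pulldown lay above its input in all 3 libraries, and the miR-29b pulldown lay far above both (edgeR adjusted p = 8.57e-06). The miR-29b pulldown held 610.3, 2429.8 and 1480.0 CPM of Tet3, against 30.4, 89.6 and 86.9 CPM in the scrambled pulldown. The inputs held 20.1, 30.6 and 26.7 CPM with miR-29b and 21.7, 34.1 and 30.3 CPM with the scrambled mimic. Replicate 1 of the miR-29b pulldown was again the lowest of its group (edgeR adjusted p = 0.000145, and 0.0116 without replicate 3).

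The de novo methyltransferases Dnmt3a and Dnmt3b rose by 3.94 ± 0.51 and 2.54 ± 0.66, and the thymine glycosylase Tdg, which removes the oxidised bases, by 3.60 ± 0.29. The maintenance enzyme Dnmt1 had 0.06 ± 0.35 and did not pass, and its partner Uhrf1 fell by 1.11. With all 16 libraries, replicate 4 included, Tet2 and Tet3 did not pass (edgeR adjusted p = 0.194 and 0.0926), and 3 genes of the list rose. Without replicate 3 Dnmt3b lost its call (edgeR adjusted p = 0.0891) and 6 genes of the list remained, namely the 3 Tet genes, Dnmt3a, Tdg and Smug1.

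Genes of the Bcl2 family, which set the threshold of apoptosis at the mitochondrion, had 8 higher and 3 lower of 16, with a median of 0.82. Those that rose were on both sides of the pathway. Mcl1 and Bcl2l2 protect cells, and Bbc3 (4.12 ± 0.38), Bmf (3.76 ± 0.77), Bcl2l11 (2.55 ± 0.47), Bak1 (3.39 ± 0.17) and Bax (1.73 ± 0.20) promote death. Bad fell by 0.82, Bcl2l1 by 0.49 and Bid by 0.41, while Bcl2 had 0.09 ± 0.31. Without replicate 3, 7 rose and only Bad fell. Bak1, an effector that opens the outer membrane, had 1341, 1651 and 1443 CPM in the miR-29b pulldown and 179, 156 and 146 CPM in the scrambled one, against 134, 129.6 and 129 CPM and 149, 152 and 143 CPM in the inputs.

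Of 25 genes of the p53 pathway 12 rose and 4 fell, and 9 rose and 0 fell without replicate 3. The death receptor gene Eda2r rose by 4.49 ± 0.39, the cell cycle inhibitor Cdkn1a by 2.83 ± 0.19, the phosphatase Ppm1d, which turns p53 off, by 2.67 ± 0.29 and the death receptor Fas by 1.68 ± 0.21. Trp53 itself had −0.36 ± 0.14 and its inhibitor Mdm2 0.21 ± 0.14, and neither passed. Gdf15, a secreted stress cytokine, fell by 3.02 with an SE of 1.00 (edgeR adjusted p = 0.0272), a call that it lost without replicate 3.

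Of 22 Argonaute, processing and decapping genes 9 rose and 2 fell, with a median of 0.68, and 4 rose without replicate 3. The uridylyl transferase Zcchc11 (3.92 ± 0.30), the decapping enhancer Edc3 (3.65 ± 0.38), the Argonaute partner Tnrc6a (3.27 ± 0.39) and Ago1 (2.33 ± 0.34) were those 4. Dicer1 rose by 1.68 ± 0.40 with replicate 3 in the fit, Ago2 had 0.90 ± 0.39 and did not pass, and Drosha and Dgcr8, which cut primary transcripts, fell by 0.79 and 0.65. Tnrc6a was recovered with both mimics, at 316, 848 and 569 CPM in the miR-29b pulldown over 15.3, 16.7 and 14.99 CPM in its input, and 61.8, 80.7 and 79.2 CPM over 18.2, 21.99 and 17.9 CPM with the scrambled mimic.

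Deadenylases and their BTG partners, which shorten poly(A) tails, had 10 higher and 3 lower of 18, with a median of 0.64, and 5 and 0 without replicate 3. Pan2 is the catalytic subunit of the Pan2-Pan3 deadenylase. Pan2 stood at 87.4, 196 and 139 CPM in the miR-29b pulldown and 13.99, 14.4 and 12.6 CPM in the scrambled pulldown. In the inputs it stood at 6.18, 6.85 and 6.84 CPM with miR-29b and 7.06, 9.35 and 7.03 CPM with the scrambled mimic. The scrambled pulldown lay above its input, and the miR-29b pulldown lay far above every scrambled library. The enrichment of Pan2 was 3.60 ± 0.34, or 12.1-fold (edgeR adjusted p = 4.52e-06). The catalytic subunits Cnot6l (2.83 ± 0.22) and Cnot7 (1.73 ± 0.17), the BTG family gene Btg2 (1.96 ± 0.23) and Pan3 (1.57 ± 0.20) also rose in both fits, and Cnot10 fell by 0.85.

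TGF-β ligands, receptors and Smads had 13 higher and 4 lower of 28, with a median of 0.63, and 8 and 0 without replicate 3. Among ligands Tgfb2 rose by 2.95 ± 0.23 and Tgfb1 fell by 0.85. Among receptors Acvr2a and the BMP receptor Bmpr1a (1.75 ± 0.25) rose and the TGF-β receptor Tgfbr2 fell by 0.95. The inhibitory Smad7 rose by 3.88 ± 0.21, the common partner Smad4 by 1.49 ± 0.25, and the receptor-regulated Smad5 and Smad1 by 1.65 ± 0.24 and 1.23 ± 0.20, whereas Smad2 fell by 0.55.

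In PDGF, IGF and PI3K signalling 14 of 29 genes rose and 8 fell, with a median of 0.84, and 9 and 3 without replicate 3. The ligands Pdgfa (2.74 ± 0.18) and Pdgfc (2.59 ± 0.23), their receptor Pdgfrb (1.93 ± 0.37) and the kinase Gsk3b (3.28 ± 0.32) rose. The receptor Igf1r fell by 1.71, the kinase Mtor by 1.38 and its regulator Tsc2 by 1.28.

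In the Wnt pathway 13 of 28 genes rose and 3 fell, and 9 and 2 without replicate 3. Hbp1, a repressor of Wnt target genes, rose by 4.92 ± 0.20 (edgeR adjusted p = 1.78e-08), the receptor Fzd5 by 3.93 ± 0.24, β-catenin, Ctnnb1, by 2.18 ± 0.16 and its inhibitor Ctnnbip1 by 2.92 ± 0.42. Axin1, a scaffold of the destruction complex, fell by 1.34 and Dvl1 by 0.99. Of 15 Krüppel-like and Sp factors 8 rose and 2 fell, or 4 and 0 without replicate 3, and besides Klf4 the largest were Klf6 and Klf7, at 2.33 ± 0.21 and 2.33 ± 0.21.

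G1 cyclins, their kinases and Rb had 9 higher and 6 lower of 24, and 6 and 0 without replicate 3. Ccne2 (4.66 ± 0.58), Ccnd2 (2.87 ± 0.19), the kinases Cdk6 (2.11 ± 0.32) and Cdk2 (2.31 ± 0.31), the inhibitor Cdkn1a and Rb1 (3.04 ± 0.21) rose in both fits. Ccnd2 was abundant, at 8301, 8839 and 8526 CPM in the miR-29b pulldown against 1453, 1084 and 1108 CPM in the scrambled pulldown, with 1192, 1139.5 and 1171 CPM and 1242, 1204 and 1190.0 CPM in the inputs. Its close relative Ccnd1 fell by 0.66.

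In iron handling 10 of 18 genes rose and 1 fell, with a median of 0.53, and 6 rose without replicate 3. Besides Slc40a1, the iron regulatory proteins Ireb2 and Aco1 rose by 4.88 ± 0.35 and 1.85 ± 0.28, Ncoa4, the receptor for ferritin autophagy, by 2.72 ± 0.20, the importer Slc11a2 by 1.38 ± 0.24 and the transferrin receptor Tfrc by 1.18 ± 0.34. The ferritin light chain Ftl1 fell by 0.83, and the heavy chain Fth1 had −0.41 ± 0.29. Of 6 caveolar genes Cav2, Cav1 and Ehd2 rose (4.47 ± 0.30, 1.07 ± 0.35 and 0.94 ± 0.29) and Ptrf, which encodes a cavin, fell by 1.28. Without replicate 3 only Cav2 rose and only Ptrf fell, with edgeR adjusted p of 0.167 for Cav1 and 0.177 for Ehd2.

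In the cholesterol pathway 8 of 27 genes rose and 4 fell, and 5 and 1 without replicate 3. The synthase Hmgcs1 (4.28 ± 0.27) and Insig1, which retains the sterol sensor (3.22 ± 0.18), rose. Each had no overlap between the pulldowns, as had 28.9% of all genes in that direction. Mvk fell by 1.23. The median of this list was 0.10, close to that of all genes.

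**Figure D4:**
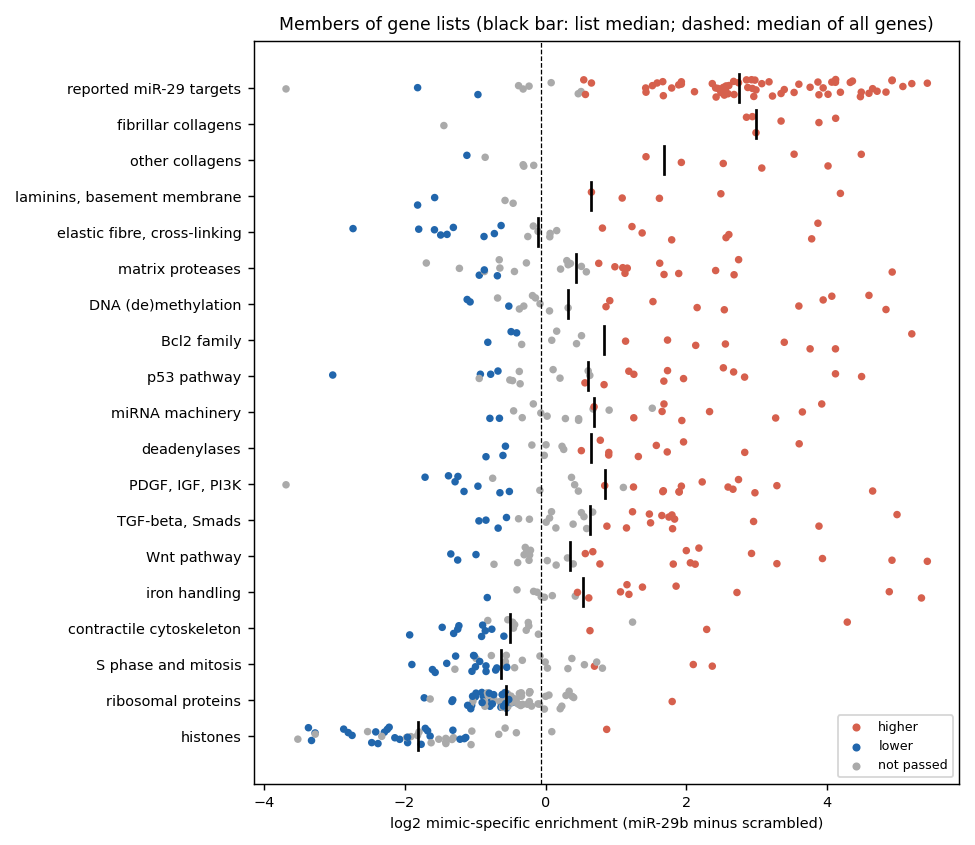
Log2 mimic-specific enrichment of each measured member of 19 gene lists, 1 point per gene, with a bar at the list's median and a dashed line at the median of all genes, −0.07. Reported miR-29 targets and fibrillar collagens lie mostly right of 2, while histones and ribosomal proteins lie mostly left of 0.

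Several groups leaned the other way, with counts that changed much with the scaling and with replicate 3. Of 46 histone genes 24 fell and 1 rose, with a median of −1.81. Many histone genes have near-identical copies, so that reads may be split among them. Without replicate 3, 6 fell, and scaling to library totals gave 10. Their levels summed to 274, 492 and 432 CPM in the miR-29b pulldown and 568, 1252 and 1292 CPM in the scrambled pulldown, against 286, 371 and 387 CPM and 349, 463 and 469 CPM in the inputs. Hist2h3c2 had 7.89, 13.5 and 10.4 CPM in the miR-29b pulldown and 53.1, 75.7 and 66.3 CPM in the scrambled pulldown, with no overlap, and −2.22 ± 0.27 on the log2 scale (edgeR adjusted p = 3.2e-05).

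Of 79 cytosolic ribosomal protein genes 27 fell and 1 rose, with a median of −0.56, but 2 fell without replicate 3. Their levels summed to 42549, 33539.8 and 38106 CPM in the miR-29b pulldown and 77167, 42625 and 48282 CPM in the scrambled pulldown, where replicate 1 stood apart. Without that library 6 rose and 29 fell. Scaling to library totals left 8 lower and 5 higher, and upper-quartile factors gave 45 lower. Rps19 fell by 1.72 with an SE of 0.19 and Rpl18 by 1.32 with an SE of 0.16. Rpl23a, a protein of the large subunit, was the one that rose, by 1.80 ± 0.24 (edgeR adjusted p = 6.27e-05), with 793, 1330.5 and 1056 CPM in the miR-29b pulldown and 306, 287 and 313 CPM in the scrambled one. These genes have many processed pseudogenes, to which reads may be lost. Translation factors and related messages had 2 higher and 7 lower of 22, and 0 and 0 without replicate 3. Among them were Eif4b at 1.13 ± 0.19 and Eif4g1 at −1.13 ± 0.26.

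S phase and mitosis genes had 3 higher and 15 lower of 34, with a median of −0.63, but their lowest edgeR adjusted p without replicate 3 was 0.0526, for Tyms. The cyclin gene Ccna2, a reported target, had 2.37 ± 0.53, the kinase gene Aurka −1.28 ± 0.25 and the thymidylate synthase Tyms −0.84 ± 0.14. Contractile and cytoskeletal genes had 3 higher and 10 lower of 24, and 2 and 4 without replicate 3. The adhesion protein vinculin, Vcl, rose by 4.28 ± 0.25 and the tropomyosin Tpm1 by 2.29 ± 0.13, while another tropomyosin, Tpm2, fell by 1.93 with an SE of 0.11 and talin, Tln1, by 1.47. The β-actin gene Actb had −0.46 ± 0.19 and did not pass (edgeR adjusted p = 0.0764), but it passed with upper-quartile factors at −0.82 (edgeR adjusted p = 0.0138), without factors, with DESeq2 and with the replicate block. Gapdh, a glycolytic enzyme often used as a reference, rose by 0.89 ± 0.15 (edgeR adjusted p = 0.000543) and lost that call without replicate 3 (edgeR adjusted p = 0.0919).

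Tropomyosins show how close relatives parted. Tpm1 had 1380.2, 1389 and 1404 CPM in the miR-29b pulldown and 284, 275 and 273 CPM in the scrambled one. Tpm2 had 33.6, 33.7 and 32.3 CPM in the miR-29b pulldown and 121, 128 and 124 CPM in the scrambled one. The order of the 2 pulldowns was opposite in these genes, with no overlap in either.

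Unfolded protein response genes had 3 higher and 7 lower of 27, or 2 and 2 without replicate 3, with the pseudokinase Trib3 at 2.11 ± 0.30, the chaperone Calr at −1.65 ± 0.16 and the phosphatase subunit Ppp1r15a at −2.12 ± 0.21. Nuclear-encoded respiratory chain subunits had 12 higher and 8 lower of 58, or 20.7% and 13.8%, against 24.4% and 19.1% of all genes. Without replicate 3, 4 of these subunits rose and 2 fell. Among them the ATP synthase subunits Atp5c1 and Atp5g3 rose by 2.58 ± 0.16 and 1.51 ± 0.19. The 13 mitochondrially encoded messages had edgeR adjusted p from 0.214 to 0.9, with log2 values from −0.19 to 0.84, and their summed level in replicate 1 of pullscram, 29083 CPM, was the lowest of the 12 libraries.

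Among 215 lincRNA genes of the file 25 rose and 23 fell, or 11.6% and 10.7%, against 24.4% and 19.1% of all genes. Their median level in the scrambled input was 0.63 CPM, against 14.8 CPM for protein-coding genes. The part of these low levels in the lower shares was not tested. Malat1 and Neat1, which stay in the nucleus, were recovered far above input with both mimics and more with the scrambled one. Malat1 had 1742, 939 and 1345 CPM in replicates 1, 2 and 3 of the miR-29b pulldown and 72.3, 86.6 and 82.1 CPM in the miR-29b input. Its level was 6654, 3275 and 3558 CPM in the scrambled pulldown and 93.1, 118 and 103 CPM in the scrambled input. Replicate 1 was the highest of both pulldown groups, and the lowest scrambled pulldown lay above the highest miR-29b pulldown. The difference was −1.36 ± 0.38 for Malat1 and −0.54 ± 0.14 for Neat1 (edgeR adjusted p = 0.0126 and 0.00671), and neither passed without replicate 3 (edgeR adjusted p = 0.114 and 0.243).

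Of 8 small structural RNA genes Rn7sk, a brake on transcription elongation, Rpph1, the RNA of ribonuclease P, and Rmrp fell, at −2.34 ± 0.38, −2.36 ± 0.38 and −1.61 ± 0.38. Rmrp did not pass without replicate 3 (edgeR adjusted p = 0.0671). Rn7sk had 221, 128 and 176 CPM in the miR-29b pulldown and 1389, 616 and 776 CPM in the scrambled one, with replicate 1 of pullscram the highest. Among biotypes of the file, 0 of 20 misc_RNA genes rose and 11 fell, 0 of 14 miRNA genes rose and 7 fell, and 47 of 783 pseudogenes rose and 96 fell. The median levels of these biotypes in the scrambled input were low, at 2.02, 2.87 and 1.04 CPM. Snhg6, a host gene of a small nucleolar RNA, rose by 3.87 ± 0.29 (edgeR adjusted p = 6.54e-07). Snhg6 stood at 197, 389 and 279 CPM in the miR-29b pulldown and 26.4, 21.2 and 21.1 CPM in the scrambled pulldown. In the inputs it stood at 40.7, 35.2 and 39.0 CPM with miR-29b and 47.5, 41.0 and 44.0 CPM with the scrambled mimic. Its miR-29b pulldown lay above and its scrambled pulldown below the inputs.

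Interferon-stimulated genes had 10 higher and 2 lower of 39, with a median of 0.21. These are 25.6% and 5.13%, against 24.4% and 19.1% of all genes. Replicate 1 of pullscram held 7553 CPM of them in sum, against 4671 and 5070.0 CPM in replicates 2 and 3, and without it 22 rose and 3 fell, where 28.5% and 24.2% of all genes did. Without replicate 3, 4 rose and 1 fell. Oasl2, an antiviral synthetase-like gene, rose by 2.87 ± 0.18 and Parp14, a poly(ADP-ribose) polymerase family gene, by 1.81 ± 0.15. The miR-29b input lay below the scrambled input for this list, at 8032, 7705 and 7883 CPM against 10047, 9999 and 9993 CPM.

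Markers of fibroblasts were present, as the cell line's label says. Of 16 fibroblast markers 14 were tested, and they summed to 5496, 5420.4 and 5606 CPM in the miR-29b input and 5430.4, 5471 and 5559.7 CPM in the scrambled input. Only 2 of 9 epithelial, 1 of 6 endothelial, 2 of 8 leukocyte and 2 of 8 muscle markers were tested. These summed to 0.533 to 7.07 CPM per list in any library. The 4 embryonic stem cell markers were not among the deposited genes, so they have no measured level here. The 3 of 7 neural markers tested summed to 10.4 to 21.4 CPM. Adipocyte markers summed to 4027, 4052 and 3982 CPM in the miR-29b pulldown and 964, 1501 and 1395 CPM in the scrambled pulldown, against 1246, 1286 and 1228 CPM and 1077, 1102 and 1100.0 CPM in the inputs. Most of each sum was Lpl, which carries an 8mer mark. Lpl had 3723, 3766 and 3697 CPM in the miR-29b pulldown and 655, 1283 and 1171 CPM in the scrambled pulldown. Of 14 fibroblast markers 5 rose and 4 fell, or 4 and 1 without replicate 3. Of 7 adipocyte markers 1 rose, 1 fell and 5 did not pass. Lpl, a lipase and a reported target, rose by 1.42 ± 0.28, and the transcription factor Cebpa had −2.24 ± 0.44. Both lost their calls without replicate 3 (edgeR adjusted p = 0.0644 and 0.0664).

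Several genes named above rose or fell only with replicate 3 in the fit. Without it Tgfb1, Tgfbr2, Smad2, Akt2, Hspg2, Timp2, Mmp14, Fn1, Bgn, Ltbp1, Ltbp4 and P4ha3 did not pass. The same held for Drosha, Dgcr8, Dicer1, Cnot10, Uhrf1, Bcl2l1, Bid, Ccnd1, Ccna2, Aurka, Tfrc, Ftl1 and Prpf3. Their edgeR adjusted p without replicate 3 ran from 0.0611 to 0.351.

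Without replicate 1 of pullscram the Wnt list had 14 higher and 7 lower, the other collagens 7 and 3, the caveolar genes 3 and 2, the translation factors 5 and 10, and the matrix proteases and inhibitors 14 and 5. The adipocyte markers had 4 higher and 1 lower, and the histones 1 and 36. The S phase and mitosis genes had 4 and 21, the G1 list 9 and 9, and the nuclear-encoded respiratory chain subunits 18 and 8. Cholesterol genes had 9 and 6, unfolded protein response genes 4 and 10, and matricellular genes 4 and 6. Of all genes 28.5% rose and 24.2% fell in that fit.

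The fourth replicate gave 1 library per group, which allows a test only of its difference from replicates 1 to 3, on the assumption that it varies as they do. Replicate 4 of input29b was made from 6 ng of RNA and the others from 5 ng. The library labelled replicate 4 of pullscram differed from replicate 3 of pullscram over 2-fold in 0 of 5199 genes and from replicate 2 in 11. In the other groups replicate 4 differed from replicate 3 in 1062 of 5922 genes for pull29b, 1338 of 5467 for input29b and 676 of 5434 for inputscram. The enrichment in replicate 4 therefore sets a scrambled pulldown that resembles the lysed set against inputs that do not, and it has no value without that library.

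On these terms the enrichment in replicate 4 was called different for 931 of 12915 genes, or 7.21%, of which 842 were lower, or 6.52%, and 89 higher, or 0.689% (edgeR). Of the 3127 genes that rose in replicates 1 to 3, 2732 had a value above 0 in replicate 4, and their median was 0.93 there, against 1.497 in replicates 1 to 3. Of these genes 402 were called lower in replicate 4 and 9 higher. Of the 2457 that fell, 2197 had a value under 0, with a median of −0.90 against −0.96. Over all 12915 genes 45.6% had a value above 0 in replicate 4, with a median of −0.12. The same libraries 1 to 3 chose the genes that rose and fell and enter the difference, so the counts are a description. Values in replicate 4 are differences of log2 CPM between single libraries, with a prior count of 2 added that draws ratios of low counts toward 0. Those of replicates 1 to 3 come from the edgeR fit, so the 2 are not quite the same measure. Reported targets had a median of 1.03 in replicate 4 and 2.74 in replicates 1 to 3, and genes with a site mark 1.11 and 2.17.

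The interferon-stimulated genes differed by a wide margin. All 39 had a value under 0 in replicate 4, at a median of −2.54 against 0.21 in replicates 1 to 3, and 32 were called lower, against the 6.52% of all genes given above. Rsad2 had 19.6 CPM in the miR-29b pulldown of replicate 4 and 31.9 CPM in the scrambled one, with 4.41 and 1.63 CPM in the inputs. The scrambled pulldown thus lay near its replicates 2 and 3, while both inputs and the miR-29b pulldown lay far below theirs. The part of that library in the difference was not tested.

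**Figure D5:**
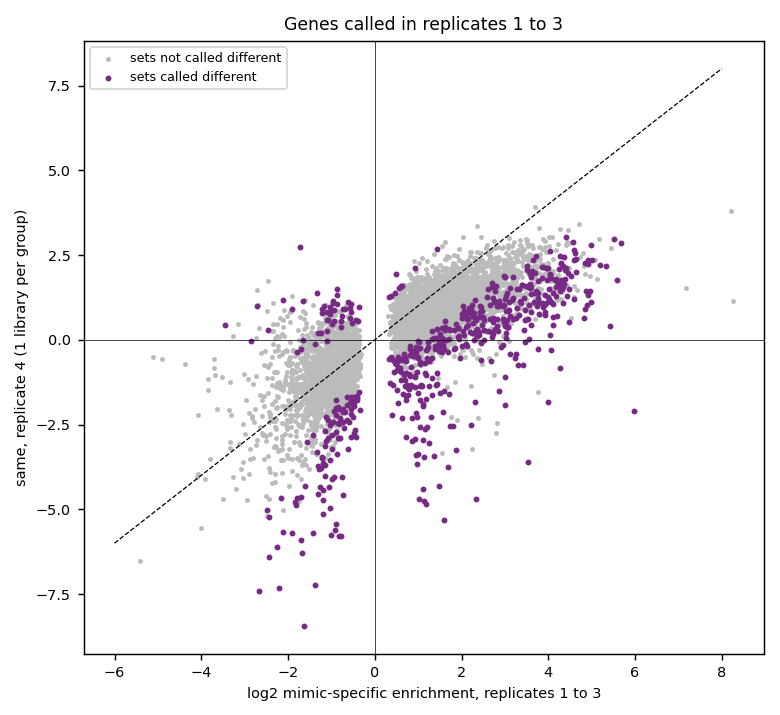
Log2 mimic-specific enrichment in replicate 4 (vertical, 1 library per group) against replicates 1 to 3 (horizontal) for the genes called in replicates 1 to 3, with the line of equality dashed and the genes called different between the sets in purple. Of the higher genes 2732 of 3127 lie above 0 in replicate 4, where 45.6% of all 12915 genes do.

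The authors' deposited table marks genes by a score of its own, named PE in the headers. All but 2 of the 683 genes that it marks as significant in all lysed replicates rose here, and none fell. Of 1226 tested genes marked in at least 1 lysed replicate, 1140 rose and none fell. The same counts underlie both, so this compares ways of scoring and not measurements.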

How the data were processed

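RNA was measured in pulldown and input libraries of mimic-transfected NIH3T3 cells. The deposited table gives raw read counts per gene, with CPM and a score named PE beside them. Per the submitters' processing notes, reads were aligned with STAR 2.3.0 to mm10. The counting tool is not given in the sources used here. Testing the file showed that the authors' deposited CPM is the count plus 1 over a library total larger than the listed sum. The deposited score (PE) was used only through the authors' marks, and their CPM values entered no test.

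Of 14052 lines, 518 repeats were dropped, which left 13534 genes. After filterByExpr 12834 were tested and 700 were not. Counts of the 12 libraries were fitted in R 4.3.3 with edgeR 4.0.16 (TMM factors, a mean per group, glmQLFit and glmQLFTest), with Benjamini-Hochberg adjustment. The SE is the log2 value divided by the square root of F. The table's counts cover 48.9% to 87.3% of the authors' library totals, and the listed counts per library run from 7409157 to 41046886. Intervals and tests do not separate PCR copies, since no molecular identifiers are used.

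Genes were named by rank, 12 at each end, given 5 CPM or more as the mean of some group, and from gene lists, and a few of them are not reported here. The comparison, the lists and the named genes were chosen with earlier results of these data known. Data over 12730 genes were simulated for this comparison, with 100 genes changed 4-fold and 100 changed 2-fold. Of these 90% and 30% were recovered, with 8 false calls. The simulated libraries were drawn as independent, with the spread fitted to each gene. The false calls therefore cannot speak to data with a replicate that is not independent. Alternatives were RLE, upper-quartile, no and library-total scaling, DESeq2 1.42.0, other filters, a replicate block, left-out replicates, all 16 whole-cell libraries and a test against 1.5-fold. Symbols and coordinates are RefSeq's (GRCm38.p6).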

Additional observations from a re-analysis of the deposited data

Results flagged for a closer look

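Genes named at either end and in the lists were compared between replicate 4 and replicates 1 to 3 in 1 edgeR model of 16 libraries, in which the lone libraries of replicate 4 are assumed to vary like the others. Over all genes 842 had a lower and 89 a higher enrichment in replicate 4. The values below are the enrichment in replicate 4 minus that in replicates 1 to 3, on the log2 scale.

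Among the genes that rose in replicates 1 to 3, the antiviral gene Rsad2 differed by −8.10 (edgeR adjusted p = 0.000198). The differences were −2.97 for Mcl1, −3.12 for Slc40a1, −2.78 for Efna2, −3.83 for Acvr2a, −3.78 for Nrep, −5.37 for Frat2, −2.64 for Ammecr1l and −2.17 for Snx24, with edgeR adjusted p from 0.000905 to 0.0447. For Col4a1 it was −2.90, for Lox −2.77, for Tdg −2.24 and for Ccnd2 −1.71 (edgeR adjusted p from 0.000506 to 0.0201).

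Among the genes that fell, Hoxc5 differed by 2.77 (edgeR adjusted p = 0.0112). H2-Q6 had 0 CPM in the miR-29b pulldown of replicate 4 and 25.6 CPM in the scrambled one, so its fitted difference of −8.61 rests on 1 library at 0 and is no bound. Each of these differences rests on 1 library per group, and the library labelled replicate 4 of pullscram lay with replicates 2 and 3 of its group. Its part in the differences was not tested.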

How the results depend on the processing

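The count of higher genes ran from 1702 to 3942 and that of lower genes from 502 to 3210 when replicates were left out. The lower count was 4405 with upper-quartile factors, 571 with library totals, 1190 with all 16 libraries and 925 against 1.5-fold. Scaling moved the median of all genes from −0.42 (upper-quartile) to 0.24 (library totals), against −0.07. Without scaling factors 2721 were higher and 2954 lower. With the replicate block 3367 were higher and 2846 lower. Deviations of same-numbered samples correlated at over 0.1 in 13 of 18 cases; replicates 1 and 2 did in all, from 0.178 to 0.392, and the other 5, from 0.0396 to 0.0896, were of replicate 3. This is a hint of pairing from the data that the labels do not state, so the block stayed an alternative. Leaving out replicate 3 of pull29b with replicate 1 of pullscram, an alternative chosen after seeing the data, gave 3419 and 2782. Of 130 named genes 129 were called, none reversed its sign under 26 alternatives, 20 lost the call without replicate 3, and 29 did with all 16 libraries, among them Tet2, Tet3, Tnrc6a, Ireb2, Fbn1 and Cdk6. Library totals cost 10 calls. For replicate 4 against replicates 1 to 3, the higher count was 140 with upper-quartile factors, 11 with library totals, 215 with DESeq2 and 185 with the replicate block, and the lower count was 527 without factors and 374 with library totals. Left-out libraries gave 37 to 536 higher and 484 to 1675 lower, the highest of both without replicate 1 of pullscram. Without replicate 1 of pull29b 152 were higher. Higher counts of 37 came without replicate 3 of pull29b, 50, 53 and 37 without replicates 1, 2 and 3 of input29b, 48 without replicate 3 of pullscram, and 53, 57 and 42 without those of inputscram. Lower counts of 526, 559 and 484 came without replicates 1, 2 and 3 of input29b, and 538 and 502 without replicates 2 and 3 of inputscram. The cause was not tested. In the simulation 30% of 2-fold changes were recovered. Far fewer genes changed there than were called in the data, which makes its cutoff on p stricter. Its libraries were also drawn as independent, which replicate 3 may not be. Neither that share nor the number of false calls need hold in the data.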

Other observations

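The series also holds 8 libraries of cytoplasmic and nuclear fractions, 1 for each combination of mimic, pulldown or input and fraction, which allow no test. On the log2 scale the mimic-specific enrichment of Mcl1 was 2.77 in the cytoplasmic and 1.54 in the nuclear fraction. For Col1a1 these values were 1.92 and 0.64, for Tet3 2.19 and 1.67, and for Lrrc8a −4.56 and −0.21. Over 481 protein-coding genes with a site mark the medians were 0.63 in the cytoplasmic and 0.26 in the nuclear fraction, against −0.02 and −0.01 over 10144 without a mark.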
